A study of Rattus norvegicus with 15 samples.

Results

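MicroRNA miR-21 and its passenger arm, listed on the array as miR-21*, were followed through the first days after injury of the rat sciatic nerve. Both were chosen by name, as rno-miR-21 and rno-miR-21*. They are 2 of the 350 rat miRNAs that the array measured. Total RNA of adult male rat sciatic nerve was hybridised to 15 one-colour miRNA arrays, in 5 groups of 3: normal nerve with no injury (day 0) and injured nerve taken at 1, 4, 7 and 14 days. The labels call the injured samples proximal stumps and give the tissue as the injury site, but they name the injury both as a resection and as a crush, so it is called injury here. Nothing in the labels states that the 3 replicates came from separate animals, so a p-value measures only the spread between these samples, which may be technical.

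A miRNA gene is transcribed into a hairpin. Each side of the stem can give a mature strand of about the same length, and usually one strand is kept in the silencing complex while the other, the passenger or star strand, is degraded. The kept strand pairs with target mRNAs mainly through its seed, the bases near its 5′ end. In mammals miR-21 is known for its induction by STAT3 and AP-1 and for its repression of Pdcd4, Timp3 and Sprouty mRNAs, which restrain translation, matrix breakdown and receptor signalling. It is found in Schwann cells, neurons, fibroblasts and macrophages, all of which occur in injured nerve.

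The sequences of both strands and of their hairpin were taken from the RefSeq table of the GRCr8 assembly, where miR-21 is rno-miR-21-5p and miR-21* is rno-miR-21-3p. They are shown because the array reads each strand of the hairpin separately. Capitals mark bases 2 to 8, the seed, in the mature strands (chr10:71902653-71902674 and chr10:71902615-71902636, both on the minus strand), written 5′ to 3′.
miR-21: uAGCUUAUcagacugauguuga
miR-21*: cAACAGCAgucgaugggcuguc
The hairpin gene Mir21 lies at chr10:71902600-71902691 on the minus strand and is 92 bases long. Capitals in it mark the 2 mature arms, at bases 18 to 39 and 56 to 77.
Mir21 hairpin: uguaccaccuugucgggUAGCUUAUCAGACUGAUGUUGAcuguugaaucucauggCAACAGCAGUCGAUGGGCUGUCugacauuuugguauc
No other mature rat miRNA in that table has either seed. The genes nearest to Mir21 in the RefSeq table are Tubd1, which encodes delta-tubulin, and Vmp1, which encodes a membrane protein of autophagy. No annotated gene overlaps the hairpin there.

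Between 200 and 239 of the 350 miRNAs were detected by the scanner software on 14 of the arrays, and 172 on day 14 replicate 3. On that array the negative control spots averaged -9.60 ± 9.43 intensity units after background subtraction (SD over spots), while on the others their means were between -1.54 and 1.23. Day 0, day 1 and day 4 each lay on a slide of their own, so slide and day cannot be told apart for comparisons among them or with the later days. The 3 day 7 arrays shared a slide with day 14 replicates 1 and 2. With slide as a random block (within-slide correlation -0.04) no call of either member changed. In all, 164 miRNAs were detected on every array, and 231 passed detection on all 3 arrays of some group and were tested.

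Mature miR-21 rose at every time after injury. It was 2.85-fold higher on day 1, 8.16-fold on day 4, 9.13-fold on day 7 and 6.40-fold on day 14 than in uninjured nerve, where it was already well above background. The rise was steep between uninjured nerve and day 4, the values of days 4 and 7 overlapped, and day 14 lay below day 7.

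The background-subtracted intensity of miR-21, the mean over its 2 probes of 10 spots each, was 2257, 2494 and 2570 in the 3 uninjured nerves. It was 6800, 5675 and 6413 on day 1. On day 4 it was 15925, 19335 and 18609. Every value of day 1 lay above every value of day 0, and every value of day 4 above every value of day 1. After the scaling given next, 53.7% and 60.6% of all tested miRNAs were likewise without overlap in these comparisons, in either direction. On day 7 the intensity was 23334, 24406 and 24011, and on day 14 it was 22365, 14318 and 26222. Before scaling, the day 14 values thus lay on both sides of the day 7 values. No miR-21 spot was saturated, and the spots of a probe on an array varied by a median of 4.23% (coefficient of variation, 1.38% to 8.09%).

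Levels were compared after each array's intensities were divided by their 75th percentile over the 164 miRNAs detected on every array. On the log2 scale miR-21 then had a level of 1.82, 2.04 and 2.07 on day 0, of 3.54, 3.34 and 3.59 on day 1, and of 4.80, 5.14 and 5.08 on day 4. It had 5.15, 5.23 and 5.13 on day 7 and 4.61, 4.51 and 4.84 on day 14. The group means were 1.98 ± 0.14, 3.49 ± 0.13, 5.01 ± 0.18, 5.17 ± 0.06 and 4.66 ± 0.17 on days 0, 1, 4, 7 and 14 (SD, n = 3 each). The 3 values of each injured day lay above those of day 0, as for 53.7%, 77.1%, 74.9% and 62.8% of tested miRNAs, in either direction, on days 1, 4, 7 and 14. In order of level, day 0 was lowest, followed by days 1, 14, 4 and 7.

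**Figure D1:**
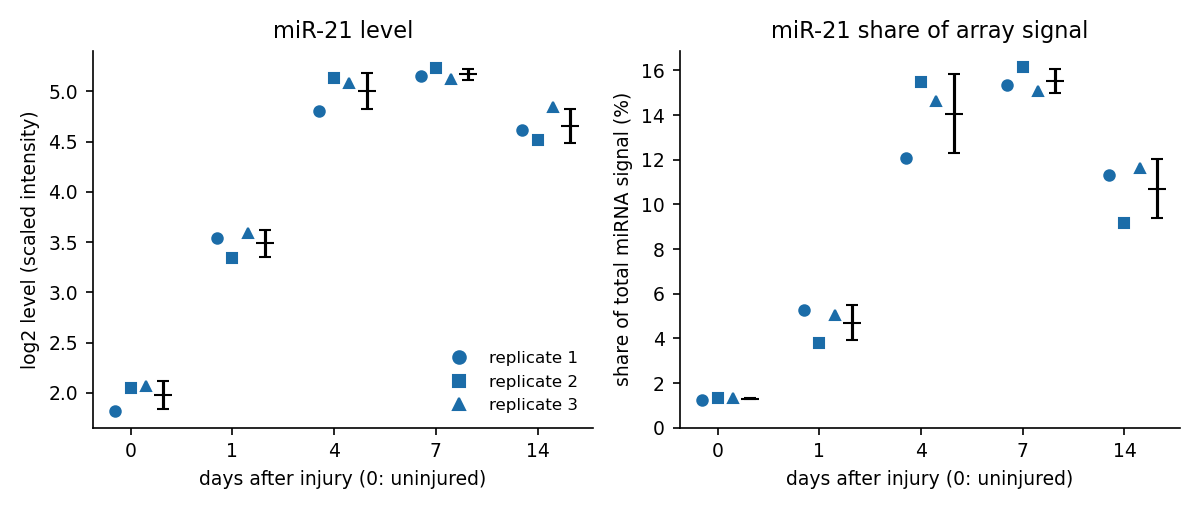
Level of miR-21 by array (points; marker shape gives the replicate) with the group mean and SD (bars), on the log2 scale after scaling (left) and as its share of the summed signal of all miRNAs on the array (right); the day axis is not to scale. All 12 injured arrays lie above the 3 uninjured ones on both measures, and the 3 day 14 arrays lie below the 3 day 7 arrays.

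The injured groups differed from day 0 by 1.51, 3.03, 3.19 and 2.68 on the log2 scale on days 1, 4, 7 and 14 (SE 0.12 each). The adjusted p-values were 1.47e-06, 9.39e-10, 4.98e-10 and 4.20e-09 (limma, Benjamini-Hochberg over the 231 tested miRNAs). Many miRNAs passed this test: the share higher than day 0 was 16.5%, 19.9%, 16.9% and 16.9% on days 1, 4, 7 and 14, the share lower was 43.3%, 44.6%, 45.0% and 50.2%, and the share changed in either direction was 59.7%, 64.5%, 61.9% and 67.1%. The median change of all tested miRNAs was -0.26, -0.26, -0.32 and -0.40. Under the other scalings tried this median lay between -0.41 and 0.05, and the rise of miR-21 passed the test at each time under all of them, between 1.37 and 1.83 on day 1 and between 2.44 and 3.34 on day 4.

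The F test over the 5 groups gave an adjusted p of 2e-09 for miR-21 and of 4.9e-05 for miR-21*, and 84.4% of tested miRNAs passed it. Between neighbouring times, day 4 exceeded day 1 by 1.52 (SE 0.12, adjusted p = 1.75e-06), beside 26.0% of tested miRNAs that were higher in that comparison. Day 7 and day 4 differed by 0.16 (95% interval -0.09 to 0.42, adjusted p = 0.508), and their arrays overlapped. Of all tested miRNAs, 4.76% passed in that comparison and 50.6% did not overlap. Day 14 was lower than day 7 by 0.51 (change -0.51, SE 0.12, adjusted p = 0.0212), a comparison in which 6.49% of tested miRNAs fell and 38.1% did not overlap in either direction. Within the slide that days 14 and 7 share the difference was -0.61 (adjusted p = 0.0172). The call was lost when any one day 7 array was left out (all 3 within -0.54 to -0.48), and without scaling the difference was -0.23 (adjusted p = 0.299). In the authors' deposited value table miR-21 held the column maximum on all 9 arrays of days 4, 7 and 14, so no difference among those days could appear there.

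The same course was seen in the share of the array's summed miRNA signal that came from miR-21 probes. This share was 1.27%, 1.34% and 1.32% in uninjured nerve. It was 5.26%, 3.81% and 5.04% on day 1, then 12.1%, 15.5% and 14.6% on day 4, 15.3%, 16.1% and 15.1% on day 7, and 11.3%, 9.19% and 11.6% on day 14. These are shares of signal and not of molecules, since probes differ in brightness per molecule. In bulk nerve, more cells of a type and more RNA per cell cannot be told apart.

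Among the 164 miRNAs detected on every array, miR-21 had the largest rise from day 0 on days 4, 7 and 14. The next largest was miR-222 on day 4 (2.19) and day 7 (1.87), and miR-146b on day 14 (1.64), both miRNAs inducible by growth or inflammatory signals. On day 1 it was second to miR-223, a miRNA of neutrophils and macrophages, which rose by 1.79 (SE 0.17, adjusted p = 4.81e-06). Among all 231, the miRNAs with a larger fitted rise on days 4 and 7 were miR-21* and miR-31, and on day 14 miR-31. Neither was detected on any day 0 array, so their fitted changes depend on the floor set for undetected values. miR-31 exceeded the lowest detected signal of the day 0 arrays 56.7-fold on day 4 and 25.9-fold on day 14. On day 1, 9 of the 231 had a larger fitted change than miR-21.

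**Figure D2:**
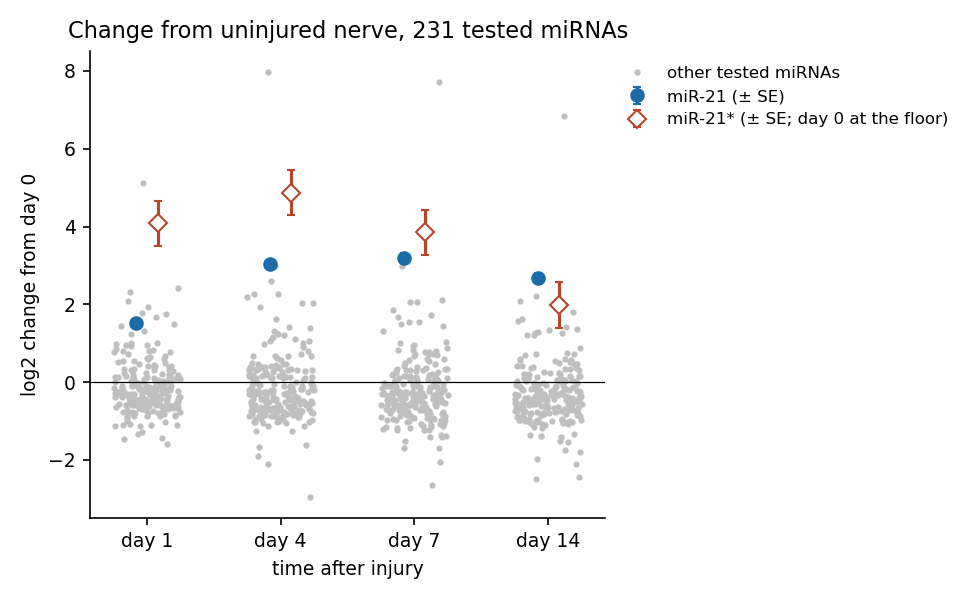
Log2 change from uninjured nerve (vertical axis) of the tested miRNAs on days 1, 4, 7 and 14, with miR-21 (filled circles) and miR-21* (open diamonds) with their standard errors and the others as grey points spread sideways at random. miR-21 is 1.51, 3.03, 3.19 and 2.68 above day 0; the position of miR-21* depends on the floor given to its undetected day 0 values.

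The probes of miR-21 gave the same direction and slightly different sizes. Probe A_26_P00001210 rose by 1.42, 2.96, 3.15 and 2.69 on days 1, 4, 7 and 14, and probe A_26_P00001211 by 1.66, 3.15, 3.26 and 2.65. The ratio of the first probe's intensity to the second's was 1.89, 1.81 and 1.83 on day 0 and 1.503, 1.55 and 1.63 on day 1. It was 1.61, 1.65 and 1.59 on day 4, 1.70, 1.69 and 1.72 on day 7, and 1.89, 1.89 and 1.90 on day 14. The ratio thus dropped on day 1 and returned by day 14 to its level in uninjured nerve. It differed over the 5 groups (permutation test over the 15 arrays, p = 1e-05, the smallest that 100000 resamples can give; chosen after the values were seen). The day means of its log2 spanned 0.28, which ranked 24th among 151 miRNAs with 2 probes, where the median span was 0.13.

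The passenger arm was near background throughout. The software detected miR-21* on 0 of 3 arrays on day 0, on 3 of 3 on each of days 1, 4 and 7, and on 1 of 3 on day 14. On the 3 day 4 arrays and on day 14 replicate 1, at least 1 of its probes had most of its spots well above background, the stricter call of the software. On no array did more than 2 of its 4 probes reach this. Over its 4 probes of 5 spots each, its intensity was -2.61, -0.476 and -3.58 on day 0 and 6.15, 4.93 and 5.77 on day 1. On day 4 it was 9.61, 10.2 and 8.95, the highest of the 5 groups. It was 5.72, 4.88 and 6.39 on day 7 and 5.17, 2.37 and -2.93 on day 14. The values of days 1, 4 and 7 lay above all those of day 0, those of day 4 above all others, and day 14 ranged from the level of day 7 down to that of uninjured nerve. After scaling, 53.7%, 77.1% and 74.9% of all tested miRNAs did not overlap day 0 on days 1, 4 and 7, in either direction.

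Because miR-21* was not detected on day 0, its rise can only be set against signals detected there. Against the lowest signal that the software detected on each day 0 array, it was 2.21-fold higher on day 1. It was 3.80-fold higher on day 4 and 1.87-fold on day 7. These folds hold for the main background subtraction and were not themselves tested. They are not strict lower bounds, since an undetected miRNA can measure above the lowest detected one. On day 0 the undetected miR-132 had a mean log2 level of -6.09, above that of miR-21* on days 1 and 7 (-6.64 and -6.88). The limma fit, with the day 0 values at the floor, gave adjusted p-values of 0.000116, 1.40e-05 and 8.82e-05 on these days. These p-values depend on that floor. Over the processing alternatives the fitted log2 change ran from 0.30 to 7.92 on day 1 and from 0.32 to 8.57 on day 4. The low ends of these ranges came from normexp background correction, which adds an offset of 50 intensity units. That offset exceeds every miR-21* intensity, so changes of this arm shrink by construction there. The day 7 call ended under normexp, where the change from day 0 was 0.075 (adjusted p = 0.482). With the stricter criterion of signals well above background, such a fold could be given for day 4 alone, 1.30-fold. No such fold is given for day 14, where 1 of the 3 arrays detected it. Against day 0 the fitted change on day 14 had an adjusted p of 0.00928, but it did not pass in the authors' deposited value table (0.39, adjusted p = 0.382). Nor did it pass with the floor at the arrays' median, chosen after seeing the data (0.24, adjusted p = 0.184). It did pass with a floor 4 times higher.

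Among injured days, miR-21* reached log2 levels of -6.57, -6.83 and -6.53 on day 1, of -5.89, -5.75 and -5.94 on day 4, and of -6.85, -7.06 and -6.75 on day 7. On day 14 replicates 1 and 2 had -7.46 and -8.05, while replicate 3 was set to the floor of -10.73. The fitted difference was 0.78 for day 4 minus day 1 and -1.02 for day 7 minus day 4 (SE 0.58 each), and neither passed the test (adjusted p = 0.276 and 0.384). The arrays of these days did not overlap, as for 60.6% and 50.6% of all tested miRNAs in these comparisons, in either direction. Day 14 replicate 3 decided both calls of miR-21*. Without it the differences were 0.72 (adjusted p = 0.00321) and -1.01 (adjusted p = 0.00581). Day 14 lay below day 4 without overlap (change -2.89, adjusted p = 0.00286), or by -1.95 without day 14 replicate 3. In that comparison 22.5% of tested miRNAs fell and 51.5% did not overlap. The difference of day 14 from day 7 was -1.86 (adjusted p = 0.0553), and it passed without any one of the day 14 arrays: -2.51 without replicate 1 (adjusted p = 0.0194), -2.22 without replicate 2 (0.0421) and -0.94 without replicate 3 (0.0107).

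The 4 probes of miR-21* differed in intensity. Probe A_26_P00002013 had intensities of 15.7, 13.1 and 13.3 on day 1, of 22.1, 25.0 and 21.1 on day 4, of 13.5, 15.3 and 15.8 on day 7, and of 16.1, 6.91 and 10.04 on day 14, against -2.06, -3.60 and -2.29 on day 0. Fitted on its own, this probe was 0.70 higher on day 4 than on day 1 (adjusted p = 0.0049) and 0.87 lower on day 7 than on day 4 (change -0.87, adjusted p = 0.0212). Its change on day 14 against day 7 was -0.80 (adjusted p = 0.0157). Probe A_26_P00002012 was likewise highest on day 4, with 15.2, 15.8 and 12.9 on day 4 against -1.91, 0.114 and -3.52 on day 0. Probe A_26_P00002011 was dimmer and had 2.06, 1.29 and 2.65 on day 4, all above its day 0 range of -5.48 to -4.46. Its day 4 values lay within the mean ± SD of the negative control spots of those arrays (0.89 ± 2.05, 1.23 ± 2.08 and 0.57 ± 2.36). None of its spots was well above background on any array. In the probe fit, with its negative day 0 values at the floor, it was higher than day 0 on day 1 (adjusted p = 0.0198) and day 4 (adjusted p = 0.00707). It did not pass on day 7 (0.356) or day 14 (0.483). These p-values depend on the floor. Probe A_26_P00002010 ranged over -3.21 to 6.38 on the arrays other than day 14 replicate 3, with its highest value on a day 0 array.

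**Figure D3:**
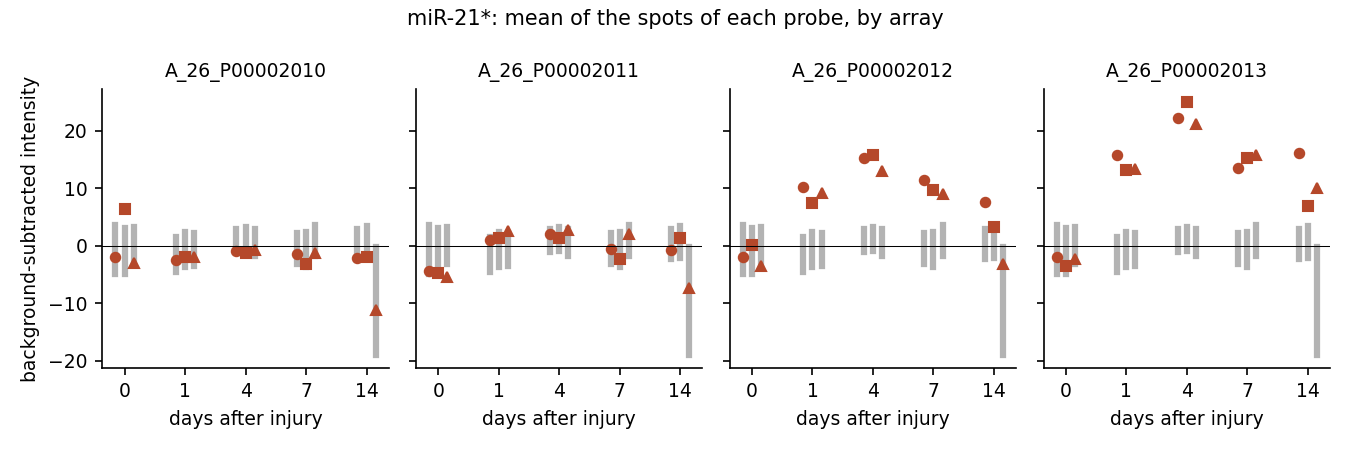
Background-subtracted intensity (vertical axis) of the 4 probes of miR-21* by array and day after injury (circle, square and triangle for replicates 1, 2 and 3), with grey bars for the mean ± SD of that array's negative control spots. Probes A_26_P00002012 and A_26_P00002013 are highest on day 4, up to 25.0, and the bar of day 14 replicate 3 lies lowest, at -9.60 ± 9.43.

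The 2 arms of the hairpin did not keep a fixed ratio. The difference between the log2 levels of miR-21 and miR-21* within an array, which needs no scaling between arrays, was 10.11, 10.17 and 10.12 on day 1 and 10.69, 10.89 and 11.02 on day 4. It was 11.99, 12.29 and 11.88 on day 7 and 12.08, 12.56 and 15.57 on day 14. The last 2 of these come from arrays that did not detect miR-21*. Days 1, 4 and 7 did not overlap, and each later day lay above the earlier one. The size of this difference includes the unequal brightness of different probes, so only its change between days can be read.

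Mean differences were 10.13 ± 0.03, 10.87 ± 0.16 and 12.05 ± 0.21 on days 1, 4 and 7 (SD, n = 3 each). Over days 1, 4 and 7, on which all 9 arrays detected both arms, an exact permutation test gave p = 0.00357, the smallest it can give. Over all 12 injured arrays the exact permutation p was 0.000195, but that test includes 2 day 14 arrays that did not detect miR-21*, 1 of them set by the floor, and nothing is read from it. Between days 4 and 1, miR-21 rose by 1.52 and miR-21* differed by 0.78, so the difference grew by 0.74. Between days 7 and 4, miR-21 differed by 0.16 and miR-21* by -1.02, and the difference grew by 1.18. With the software's total gene signal the first step was 0.10 and the second 1.45. With normexp background correction they were 1.48 and 0.41. Normexp adds an offset of 50 intensity units, above every miR-21* intensity, which shrinks the changes of that arm. Its steps therefore cannot show whether the arms diverged.

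**Figure D4:**
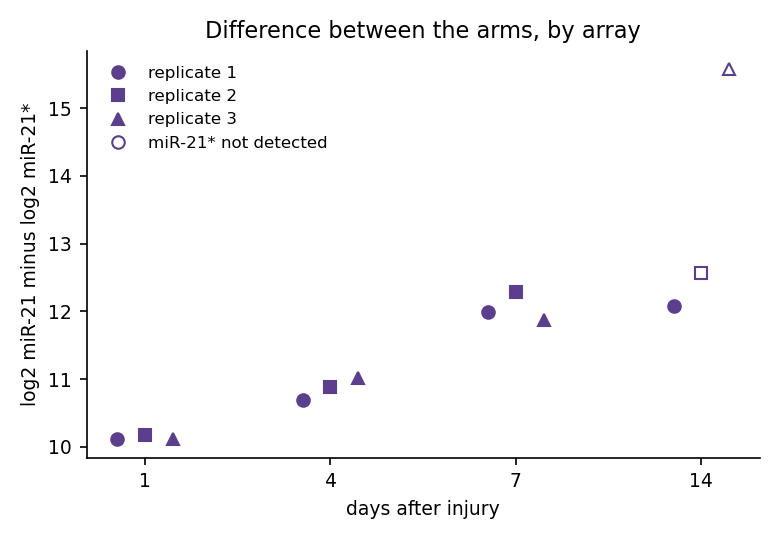
Log2 level of miR-21 minus that of miR-21* within each injured array (vertical axis), by day after injury; open markers show arrays on which miR-21* was not detected. The 3 arrays of day 1 sit near 10.13, those of day 4 near 10.87 and those of day 7 near 12.05.

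The array holds both arms of 80 hairpins by name, and 29 pairs were detected on all arrays of both days 4 and 7. The change in the difference between arms for day 7 against day 4 was larger for miR-21 (1.18) than for any other of the 29, whose median absolute change, miR-21 included, was 0.12. The next by size were miR-674-5p (-0.69) and miR-324-5p (0.49), each against its partner arm. The rank of miR-21 rests on a passenger arm near background, which was well above it on 3 of 3 arrays on day 4 and 0 of 3 on day 7. With normexp background correction, whose offset shrinks the changes of dim miRNAs, the step of miR-21 was 0.41, and the other pairs were not recomputed. For day 7 against day 1, miR-21 again had the largest change of 22 pairs (1.92). For day 4 against day 1 it was second by size (0.74), after miR-542-5p (-0.99). Against uninjured nerve, where the pair of miR-21 could not be measured, the largest differences between arms on day 4 among 23 pairs were those of miR-340-5p (1.22), miR-7a (1.08) and miR-409-5p (-1.04).

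The miRNAs whose level over the 15 arrays was most like that of miR-21 were miR-34c, a target of p53 (Pearson r = 0.977), miR-132, a target of CREB (0.963), miR-142-3p, a miRNA of blood cells (0.960), miR-31 (0.957) and miR-221, a repressor of the cell cycle inhibitor Cdkn1b (0.955). The median r of the tested miRNAs with miR-21 was -0.37. These coefficients describe points that share arrays, slides and scaling, and they include the step between uninjured and injured nerve. Over the 12 injured arrays they were 0.970, 0.864, 0.842, 0.960 and 0.877 in the same order. On day 0 no array detected miR-132, and day 4 was 4.84-fold above its undetected day 0 signal (adjusted p = 3.72e-09). miR-34c, also not detected on day 0, was 4.11-fold above its undetected signal on day 4 (adjusted p = 2.60e-07). Both folds are set against undetected signals and are not lower bounds. miR-221, detected on every array, rose by 0.77, 2.03, 1.73 and 1.25 on days 1, 4, 7 and 14, and miR-142-3p by 0.82, 1.16, 1.54 and 1.28. Like miR-21, miR-34c and miR-142-3p had their highest mean level on day 7, while miR-132, miR-31 and miR-221 had theirs on day 4.

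**Figure D5:**
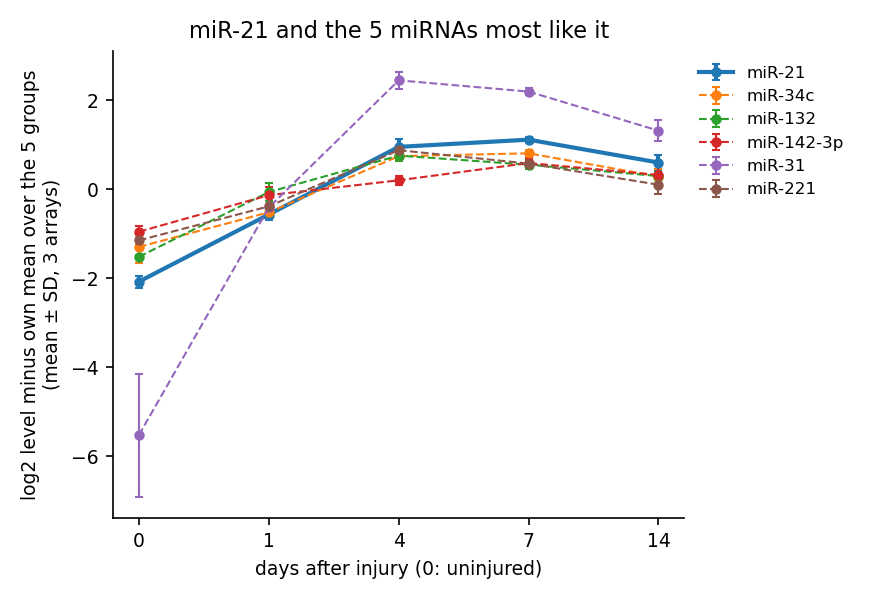
Group means of the log2 level of miR-21 (thick line) and the 5 miRNAs most like it, each minus its own mean over the 5 groups, with the SD of 3 arrays, by day after injury; the day axis is not to scale. All 6 are lowest in uninjured nerve and highest on day 4 or 7, and the day 0 values of miR-31, miR-132 and miR-34c are below detection.

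The passenger arm had other nearest neighbours. Over the 15 arrays it was most like miR-18a, a member of the miR-17-92 cluster (r = 0.898), miR-222 (0.867), miR-7a (0.867), miR-130b (0.833) and miR-132 (0.799), against a median of -0.33. Its r with miR-21 itself was 0.674 over the 15 arrays and -0.04 over the 12 injured arrays. miR-18a was detected on 1 of 3 day 0 arrays and on every injured array, where its mean log2 level was -4.27, -3.34, -3.90 and -4.58 on days 1, 4, 7 and 14, highest on day 4 as for miR-21*. miR-7a rose by 0.64, 1.21 and 1.01 on days 1, 4 and 7, and was 0.12 above day 0 on day 14 (adjusted p = 0.264).

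Other miRNAs that growth, CREB or inflammatory signals can induce were counted as a list of 8, chosen with earlier results of these data known. Of them, 7 were tested here, and 5 rose on each of days 1, 4, 7 and 14 (5 or 6 with other scalings), beside between 16.5% and 19.9% of all tested miRNAs. The list's median change was 0.77, 2.03, 1.73 and 1.30, against -0.26, -0.26, -0.32 and -0.40 over all tested. Those that rose were miR-31, miR-132, miR-221, miR-222, which rose by 2.19 on day 4 (SE 0.19), and miR-146b, which rose by 1.42. miR-146a, a brake on Toll-like receptor signalling whose seed is that of miR-146b, fell by 0.70, 0.68 and 0.42 on days 1, 4 and 7. On day 7 that fall did not pass the test with 2 of the other scalings. miR-212, from the same cluster as miR-132, passed on none of the 4 days (0.48 on day 4, SE 0.28, adjusted p = 0.150).

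Fibrosis-linked miRNAs moved in both directions. Of 8 tested members, 1 rose and 4 fell on day 1, 4 rose and 2 fell on day 4, 4 rose and 1 fell on day 7, and 3 rose and 1 fell on day 14. Over all tested miRNAs, 16.5%, 19.9%, 16.9% and 16.9% rose and 43.3%, 44.6%, 45.0% and 50.2% fell on these days. Of the list, miR-29b, a repressor of collagen mRNAs, rose by 1.01 on day 4 (SE 0.11, adjusted p = 8.88e-06). miR-214, a miRNA of fibroblasts, changed by -0.59 on day 1 and by 0.50 on day 4 (adjusted p = 0.000795). With the scaling alternatives between 0 and 2 members rose on day 1, and between 2 and 6 on day 4.

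All 6 tested members of the miR-17-92 cluster, which supports proliferation, rose on days 4 and 7, 4 rose on day 1 and 5 on day 14. Between 16.5% and 19.9% of all tested miRNAs rose on these days. The median change of the 6 members was 0.94 on day 4 and 0.83 on day 7. One member, miR-18a, was detected on 1 of 3 day 0 arrays. miR-20a rose by 0.98 on day 4 (SE 0.11, adjusted p = 8.88e-06). Without scaling, 1 member rose on day 1 and all 6 on each later day.

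Markers of the cell types that nerve samples hold changed beside miR-21. For the counts that follow, between 16.5% and 19.9% of all tested miRNAs rose on the injured days, and between 43.3% and 50.2% fell. Of 5 leukocyte miRNAs, 3 rose on each injured day (3 or 4 with other scalings), miR-142-3p and miR-142-5p on all 4, and their summed scaled level was 3.17 to 4.26 on day 1, 2.87 to 3.23 on day 4, 2.90 to 3.20 on day 7 and 2.20 to 2.81 on day 14, against 1.62 to 1.92 on day 0. Of the other members, miR-150, a miRNA of mature lymphocytes, changed by -0.60, -0.73 and -0.69 on days 4, 7 and 14 (adjusted p = 0.000458, 9.60e-05 and 0.000194). The myeloid miR-223 was highest on day 1, and miR-142-3p and miR-142-5p, like miR-21, had their highest mean level on day 7. Of 5 markers of myelinating glia, 4 were tested and 3 fell on each day (2 or 3 on days 1, 4 and 7, and 1 or 2 on day 14, with other scalings). Their sum was 11.1 to 14.7, 8.74 to 10.3, 8.91 to 9.80 and 10.3 to 13.9 on days 1, 4, 7 and 14, against 16.9 to 25.9 on day 0. Among 5 markers of smooth muscle and fibroblasts, 2 rose and 3 fell on day 4 (1 to 3 each with other scalings), and their sum was 8.63 to 9.47 on day 4 against 9.97 to 11.4 on day 0. Of 5 skeletal muscle markers none rose under any scaling, and their sum on day 0 spanned 0.738 to 16.3. Of 6 miRNAs of neurons, 2 rose and 3 fell on day 1, and 1 rose and 3 fell on day 4. On day 7, 0 rose and 4 fell, and on day 14, 0 rose and 5 fell. With other scalings 1 or 2 rose on days 1 and 4, 0 or 1 on day 7 and 0 on day 14. The number that fell was then 0 to 3 on day 1, 3 or 4 on days 4 and 7, and 4 or 5 on day 14. One that rose was miR-137, by 0.80 on day 1 and 0.68 on day 4 (adjusted p = 0.00127 and 0.00292). Its change on day 14 was -0.98 (adjusted p = 0.00025). The neuron miRNAs summed to 1.21 to 1.39 on day 4 against 1.71 to 2.32 on day 0. The pair of endothelial miR-126 arms summed to 2.73 to 3.01 on day 4 against 3.16 to 3.45 on day 0. On day 1 the erythrocyte miRNAs miR-451 and miR-144 summed to 3.04 to 9.53, against 0.734 to 3.98 on day 0. Their sum was 1.72 to 3.70 on day 4, 1.09 to 2.61 on day 7 and 1.17 to 1.37 on day 14. miR-451 rose on day 1 (adjusted p = 0.0437), and miR-144 fell on day 14 (adjusted p = 0.0370). Neither call was kept without scaling. The part of these cell types in the rise of miR-21 was not tested.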

How the data were processed

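Per the file headers, the authors' scanner files came from Agilent Feature Extraction 10.7.3.1, with an array design on build rn4, and give background-subtracted intensity per spot, after hybridising 0.1 ug of Cy3-labelled RNA per the labels. Control spots and outlier-flagged spots were left out. Intensities were averaged over spots, then over probes, divided by each array's 75th percentile over the 164 miRNAs detected on every array, floored at the lowest scaled value of any detected miRNA (-10.73 on the log2 scale) and log2-transformed. The authors' deposited value table holds log2 values. Its normalisation is not given in the sources used here, and it served as an alternative. limma 3.58.1 (R 4.3.3) fitted 5 group means over 15 arrays and 231 miRNAs, with Benjamini-Hochberg adjustment within each comparison and a threshold of 0.05. The method was tested on simulated data. The arm difference was tested with an exact permutation F test, two-sided by construction. The files hold no mean signal, so the normexp alternative used the median signal, with an offset of 50 intensity units. The precision is limited by 3 arrays per group. The members and all lists were chosen with earlier results of these data known. The text names the members, the 5 miRNAs most like each, up to 3 arm pairs, up to 4 miRNAs per list with the smallest adjusted p on day 4, and the miRNAs that rose more than a member where there were 5 or fewer. Other names (miR-146a, miR-146b, miR-212, miR-7a and the miRNAs next in rank) were added after their values were seen. Of 350 array names, 308 matched a RefSeq miRNA name. Alternatives were other scalings, background, floors and filters, slide or replicate as a block, and each array left out.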

Additional observations from a re-analysis of the deposited data

How the results depend on the processing

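Of 1059 recomputed values, 985 kept direction and call (counts: stayed within 1.5 times). The rise of miR-21 over day 0 passed on all 4 days under every alternative run. miR-21 on day 14 against day 7 was 0 in the deposited table or after quantile normalisation, -0.23 without scaling, and -0.67 to -0.44 with single arrays left out. Against day 4 it was 0.18 without scaling. For miR-21*, day 7 against day 0 was 0.075 with normexp, whose offset shrinks the changes of this arm. Day 14 against day 0 was -0.18 with normexp, 0.28 with total gene signal, 0.24 with the floor at the arrays' median, 0.39 in the deposited table and 1.98 with 2 groups only. Day 4 against day 1 passed with total gene signal (1.42), a floor 4 times higher, the median floor or 2 groups only (0.78 each), without day 14 (0.72) and in the deposited table (0.94), and was 0.69 to 0.84 with single arrays left out. Day 7 against day 4 passed with total gene signal (-1.29), either higher floor or 2 groups only (-1.02 each) and without day 14 (-1.01), and was -1.09 to -0.94 with single arrays left out. Day 14 against day 7 passed with the percentile over all miRNAs (-1.88), total gene signal (-1.13), the floor 4 times higher (-1.20), the well-above-background filter (-1.86), the median floor (-0.99) and the 2 brightest probes (-1.36), and was -2.51 to -0.94 with single arrays left out. Day 7 against day 1 was 0.0085 without scaling and 0.13 with total gene signal. The median floor, the fit without day 14, the 2 brightest probes and the arm test on days 1, 4 and 7 were chosen after seeing the data. Of all tested miRNAs, 113 passed for day 4 against day 1, but 62 with normexp. For day 7 against day 4, 11 passed, against 20 (percentile over all miRNAs), 32 (quantile), 27 (no scaling), 1 (normexp), 7 (total gene signal), 4 (medians), 3 (no filter), 5 (detected on all arrays), 20 (without day 14), 22 (deposited table), 74 (2 groups only) and 3 to 17 with single arrays left out. For day 14 against day 7, 25 passed, against 56 (percentile over all miRNAs), 76 (no scaling), 16 (2 groups only), 13 (within the slide) and 8 to 43 with single arrays left out. Apart from the arrays, filters and samples that these alternatives change by construction, the cause was not tested.

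Samples of equal replicate number had a median r of -0.01 between their deviations from the group means, over 30 pairs. The values ranged from -0.74 to 0.64, and 10 pairs lay over 0.1. With r spread this widely, the check cannot show whether the numbers pair samples. With the replicate number as a block, miR-21 changed from day 0 by 1.51, 3.03, 3.19 and 2.68, and 146, 151, 149 and 156 miRNAs passed on days 1, 4, 7 and 14. The block changed no call of either member. Low signal over background limits all values of miR-21*.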
